A study of Mus musculus with 6 samples.

Results

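Whole lungs of adult mice carry transcripts of genes that switch cells between glucose and fat as fuel, and 9 such genes were examined after deletion of Tmem100 was induced: Pdk4, Angptl4, Lpl, Cd36, Plin2, Cpt1a, Acot1, Acadl and Pnpla2. They were chosen by name, as PPAR-responsive fuel switching, lipase and lipid droplet genes, with earlier results of these data known. All array probes annotated to them were taken. A probe was tested where its detection p, a p for signal above the negative control beads, was below 0.05 on at least 3 of the 6 arrays. Of the 9 genes, 7 had a tested probe, among 9383 genes tested in all, and Acot1 and Acadl had a pair of probes each, which made 9 probes. All 9 were detected on all 6 arrays. Cd36 and Cpt1a had no probe annotated to them here and were not analysed.

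RNA of 6 lungs was hybridised to Illumina bead arrays, 1 array per mouse. The 3 mutant mice were homozygous for a loxP-flanked Tmem100 allele (labelled Tmem1002loxP/2loxP) and carried CreER, a Cre recombinase activated by tamoxifen, at the ROSA26 locus (ROSA26+/CreER), a locus active in most cell types. The 3 control mice were homozygous for the same allele and carried no CreER. Mice of both groups were injected 2 times with tamoxifen, at 0.1 mg/g, and lungs were taken 7 days later. Deletion of Tmem100 and activity of CreER itself therefore cannot be told apart. The series names the lungs as adult. The sources used here give no exact age, sex or feeding state.

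In fasting, tissues spare glucose and burn fatty acids. PPAR receptors, which sense fatty acids, FoxO factors and the glucocorticoid receptor raise transcription of kinases that keep pyruvate from being oxidised. They also raise transcription of proteins that release, carry and oxidise fat. In the lung, lipoprotein lipase works at the capillary surface, lipid-storing fibroblasts hold triglyceride, and alveolar type 2 cells use fatty acids for surfactant.

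Of the 7 measured genes, 5 were higher in mutants, 0 were lower and 2 did not pass an adjusted p of 0.05. Over all genes 12.7% were called higher and 14.5% lower. The median log2 difference, mutant minus control, was 1.22 over the 7 genes and 0.01 over all genes. As the genes were chosen with earlier results of these data known, these values describe the genes and are no independent test. Pdk4, Angptl4, Lpl, Pnpla2 and Acot1 rose, by 2.02-fold to 3.74-fold, whereas Plin2 and Acadl did not pass. Every mutant lay above every control in 5 of the 7 measured genes, against 24.6% of all genes. These 5 were the genes called higher, and the call and the gap rest on the same values. Without control mouse 2, 3 of the genes rose (Pdk4, Lpl and Pnpla2). In bulk lung, fewer cells of a type and less RNA per cell cannot be told apart.

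**Figure D1:**
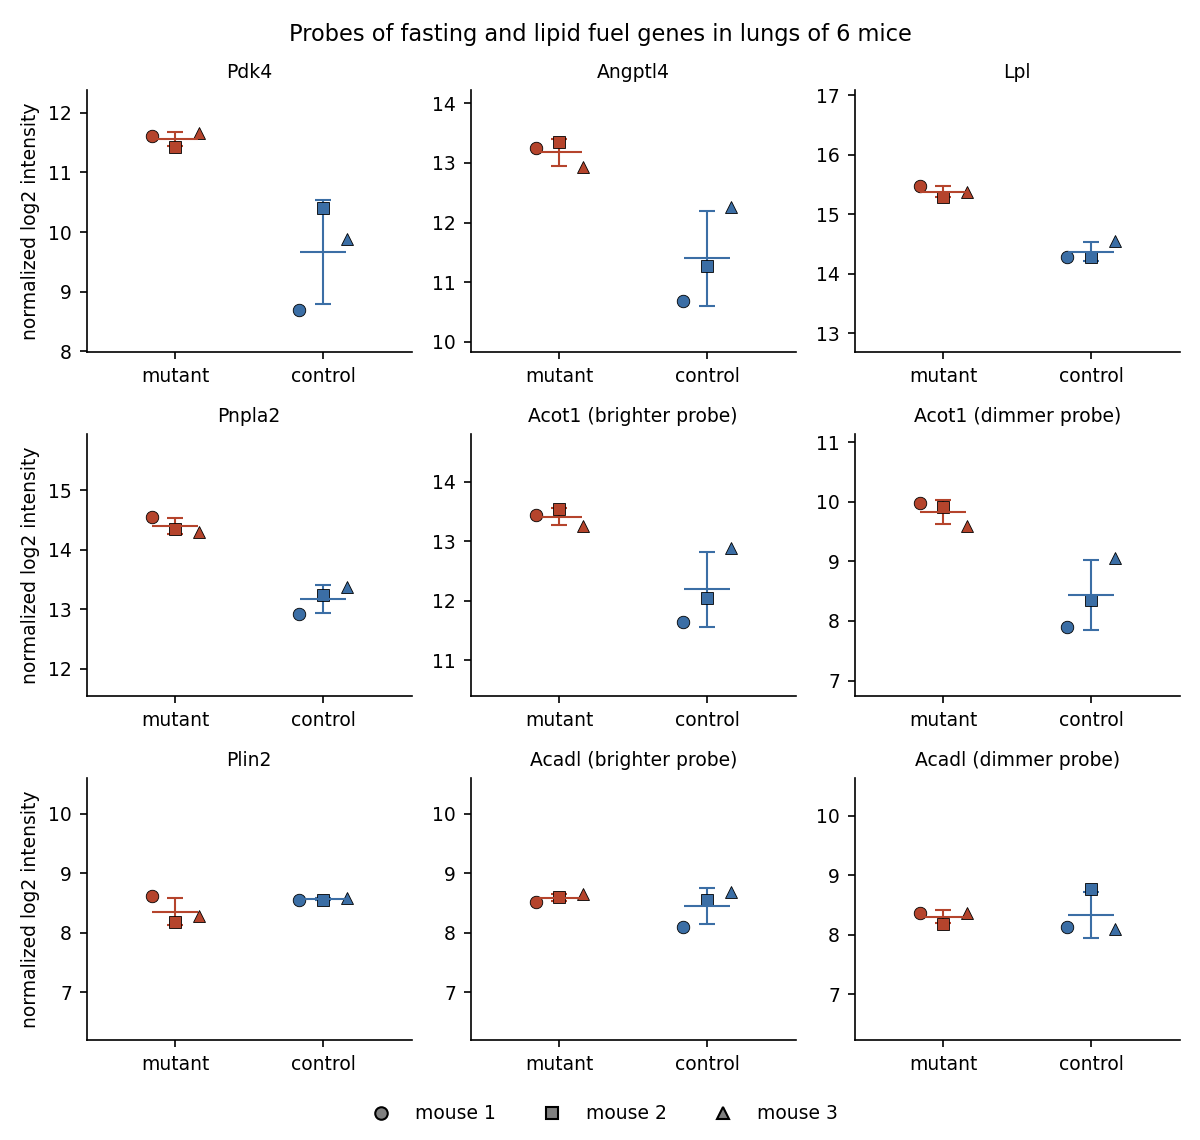
Normalized log2 intensity of each of the 9 probes (vertical axis, a separate range for each probe) in mutant and control lungs. Points are single mice, horizontal bars are group means and whiskers are ± 1 SD (n = 3 each). Mutants lie above all controls in the panels of Pdk4, Angptl4, Lpl, Pnpla2 and both Acot1 probes, and overlap with controls in those of Plin2 and Acadl.

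Pdk4 encodes a pyruvate dehydrogenase kinase, an enzyme that inactivates the pyruvate dehydrogenase complex and so keeps pyruvate from being oxidised. It had the largest difference of the 7 genes. Its probe had intensities of 3237, 2870 and 3199 in mutant mice 1, 2 and 3, against 825, 1593 and 1193 in control mice 1, 2 and 3. After normalization the log2 intensity was 11.61, 11.43 and 11.66 in the mutants, against 8.69, 10.41 and 9.88 in the controls. The mutants lay close together, with an SD of 0.12 against 0.88 among controls, and the lowest mutant was 1.02 log2 units above the highest control. The log2 difference was 1.90 ± 0.40 (SE, 3 mice per group), a 3.74-fold rise with an adjusted p of 0.0153 and a 95% interval of 0.97 to 2.84 on the log2 scale. Of the 9383 genes, 48 had a larger difference. With any 1 mouse left out the log2 difference was 1.43 to 2.29, and the call was kept under all 16 alternatives.

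Angptl4 encodes a secreted protein that inhibits lipoprotein lipase and is induced by PPAR receptors. Its log2 intensity was 13.26, 13.36 and 12.93 in mutant mice 1, 2 and 3, against 10.68, 11.27 and 12.25 in control mice 1, 2 and 3. The controls were spread over a range wider than that of the mutants (SD 0.23 in mutants and 0.80 in controls), and control mouse 3 came nearest to the mutants, 0.67 below the lowest of them. The difference was 1.78 ± 0.37 on the log2 scale, a 3.44-fold rise (adjusted p = 0.0154; 95% interval 0.90 to 2.66). Without control mouse 2 the difference was 1.72 and the adjusted p was 0.0519, so the call was lost. It was kept under the other alternatives.

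Lpl encodes lipoprotein lipase, which releases fatty acids from triglyceride in blood lipoproteins at the capillary surface. It had 15.48, 15.29 and 15.38 log2 units in mutant mice 1, 2 and 3, against 14.28, 14.28 and 14.55 in control mice 1, 2 and 3. The groups did not overlap, with a gap of 0.74, and both were tight (SD 0.10 in mutants and 0.16 in controls). The difference of 1.01 ± 0.13, a 2.02-fold rise, had an adjusted p of 0.00405 and a 95% interval of 0.71 to 1.31. It passed under all 16 alternatives. Transcripts of the enzyme and of its inhibitor Angptl4 were thus both higher in mutants, and neither says how active the lipase was.

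Genes that make, hold or cut these proteins were read from a wider list. Gpihbp1, the anchor that holds the lipase on capillary endothelium, had 12.52, 12.96 and 12.63 in mutants against 12.95, 12.82 and 13.07 in controls, and its difference of -0.24 ± 0.15 did not pass (adjusted p = 0.262). Lmf1, a chaperone needed to fold the lipase, was 1.52-fold lower in mutants (-0.61 ± 0.12, adjusted p = 0.0116), with 9.03, 9.09 and 8.90 in mutants against 9.55, 9.73 and 9.56 in controls. Sel1l, part of the endoplasmic reticulum machinery that also supports the lipase, was higher by 0.49 ± 0.11 (adjusted p = 0.0206), and Furin, a protease that cleaves the lipase, by 0.40 ± 0.11 (adjusted p = 0.0337). Both calls were lost on leaving out control mouse 1, control mouse 2 or mutant mouse 1. Angptl8, which acts with other angiopoietin-like proteins on the lipase, had a difference of -0.29 ± 0.26 (adjusted p = 0.454). Chaperone and lipase thus moved in opposite directions, while the anchor showed no difference past the threshold.

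Pnpla2 encodes adipose triglyceride lipase, the enzyme of the first step in breaking down stored triglyceride. Its log2 intensity was 14.56, 14.35 and 14.31 in mutant mice 1, 2 and 3, against 12.92, 13.25 and 13.38 in control mice 1, 2 and 3. The groups were separated by 0.93, and the difference was 1.22 ± 0.15, a 2.34-fold rise (adjusted p = 0.00403; 95% interval 0.86 to 1.59). It passed under all 16 alternatives, with log2 differences of 1.11 to 1.32 when any 1 mouse was left out.

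Of the other genes of lipolysis, 9 were measured, of which 1 rose and 2 fell, with a median of -0.16. These small counts stand beside 12.7% of all genes called higher and 14.5% called lower. G0s2, a protein that binds and inhibits adipose triglyceride lipase, had 9.66, 9.83 and 9.96 in mutant mice 1, 2 and 3, against 10.87 to 11.14 in the controls. It was 2.28-fold lower in mutants (-1.19 ± 0.13, adjusted p = 0.00349), with no overlap, so the lipase and its inhibitor moved in opposite directions. Abhd5, the co-activator of the lipase, differed by -0.16 ± 0.11 (adjusted p = 0.300). Hilpda, another inhibitor of the lipase, differed by -0.58 ± 0.19 and did not pass (adjusted p = 0.0638). Lipe, hormone-sensitive lipase, which acts on diglyceride, differed by 0.52 ± 0.21 (adjusted p = 0.109). Mgll, monoglyceride lipase of the last step, was 1.78-fold lower in mutants (-0.84 ± 0.15, adjusted p = 0.00893), and its other probes fell as well, by 0.79 and 0.97. Pnpla7, a relative of Pnpla2 that acts on lysophospholipids, was 2.30-fold higher (1.20 ± 0.13, adjusted p = 0.00302). The calls of G0s2, Mgll and Pnpla7 were kept under all 16 alternatives. The count of risers in the list was 2 on leaving out control mouse 2, with array weights, with a variance trend and without background correction. In the list, 4 genes fell with array weights, with a variance trend, under the stricter detection filter, without background correction and with normexp at an offset of 50.

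**Figure D2:**
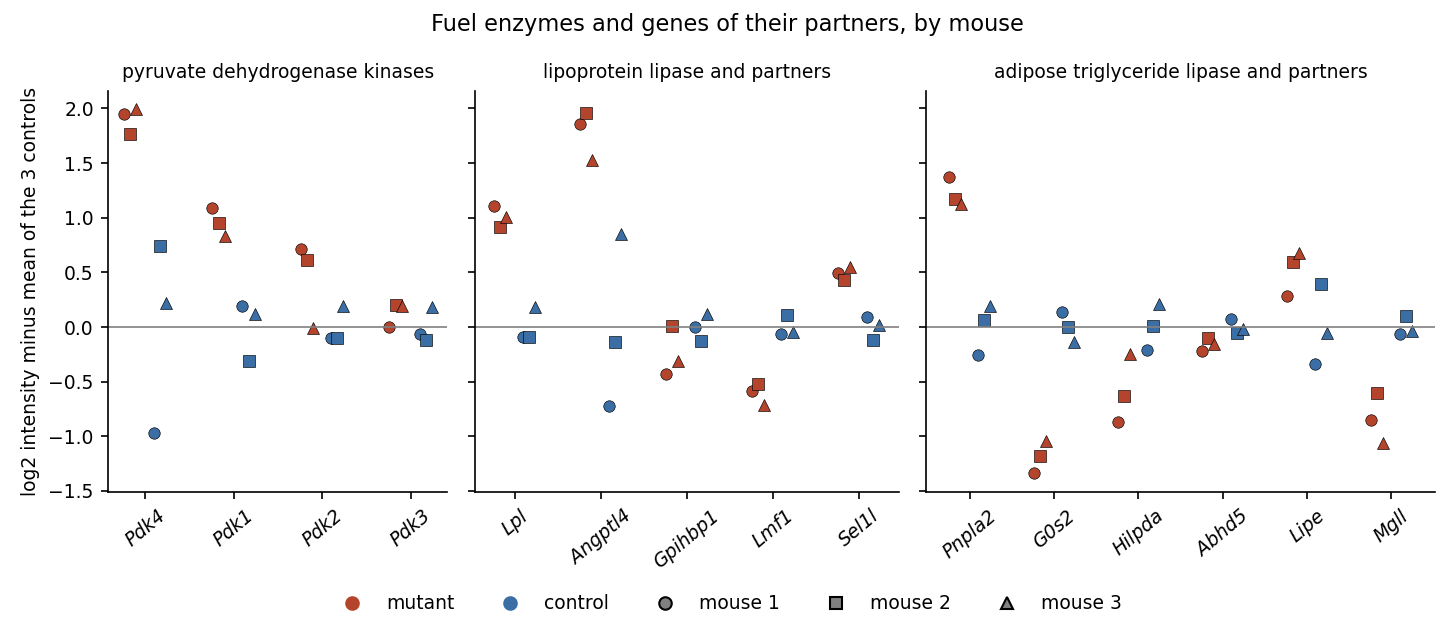
Log2 intensity minus the mean of the 3 controls (vertical axis) for the pyruvate dehydrogenase kinases, for lipoprotein lipase and its partners, and for adipose triglyceride lipase and its partners. Points are single mice, mutants in red to the left of controls in blue. Pdk4, Pdk1, Lpl, Angptl4, Sel1l and Pnpla2 lie higher in all 3 mutants than in any control, and Lmf1, G0s2 and Mgll lie lower, as do Hilpda and Abhd5, which did not pass.

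Acot1 encodes a cytosolic thioesterase that splits long-chain acyl-CoA into fatty acid and CoA, and it is a known PPAR alpha target. Acot1 belongs to a cluster of near-identical genes that includes Acot2, so which of these its probes measured is uncertain. The brighter probe had 13.43, 13.54 and 13.25 in mutant mice 1, 2 and 3, against 11.64, 12.04 and 12.88 in control mice 1, 2 and 3. Control mouse 3 lay 0.37 below the lowest mutant, the narrowest gap of the 5 genes that rose. The difference was 1.22 ± 0.30, a 2.33-fold rise (adjusted p = 0.0253; 95% interval 0.51 to 1.92). This call was lost when control mouse 1 (adjusted p = 0.0655), control mouse 2 (0.0776), mutant mouse 1 (0.0698) or mutant mouse 2 (0.0699) was left out, and with the authors' processed values (0.0544). The dimmer probe had 9.98, 9.91 and 9.60 in the mutants, against 7.89, 8.36 and 9.06 in the controls. It was 2.63-fold higher (1.39 ± 0.29, adjusted p = 0.0149) and lost its call without mutant mouse 1 (adjusted p = 0.0504). The probes thus shared a direction and the same order of the controls. Of 6 other thioesterase genes measured, 0 passed, with a median of 0.00, beside 12.7% of all genes called higher and 14.5% called lower. Acot2 differed by 0.37 ± 0.15 (adjusted p = 0.116) and the peroxisomal Acot8 by -0.29 ± 0.12 (adjusted p = 0.108).

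Plin2 encodes perilipin 2, which coats lipid droplets in most cells. It had 8.61, 8.18 and 8.27 in mutant mice 1, 2 and 3, against 8.55, 8.55 and 8.58 in control mice 1, 2 and 3. Mutant mouse 1 lay above all controls and the other mutants below them. The difference of -0.21 ± 0.14 did not pass (adjusted p = 0.303), and its 95% interval was -0.54 to 0.12. Acadl encodes the long-chain acyl-CoA dehydrogenase of mitochondrial beta-oxidation. Its brighter probe had 8.52, 8.61 and 8.65 in mutant mice 1, 2 and 3, against 8.11, 8.55 and 8.69 in control mice 1, 2 and 3, and the groups overlapped. The difference was 0.14 ± 0.17 (adjusted p = 0.556), with a 95% interval of -0.25 to 0.54. The dimmer probe differed by -0.02 ± 0.20 (adjusted p = 0.941). Plin2 and both Acadl probes passed under 0 of the 16 alternatives. The intervals leave room for changes smaller than those of the genes that rose.

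**Figure D3:**
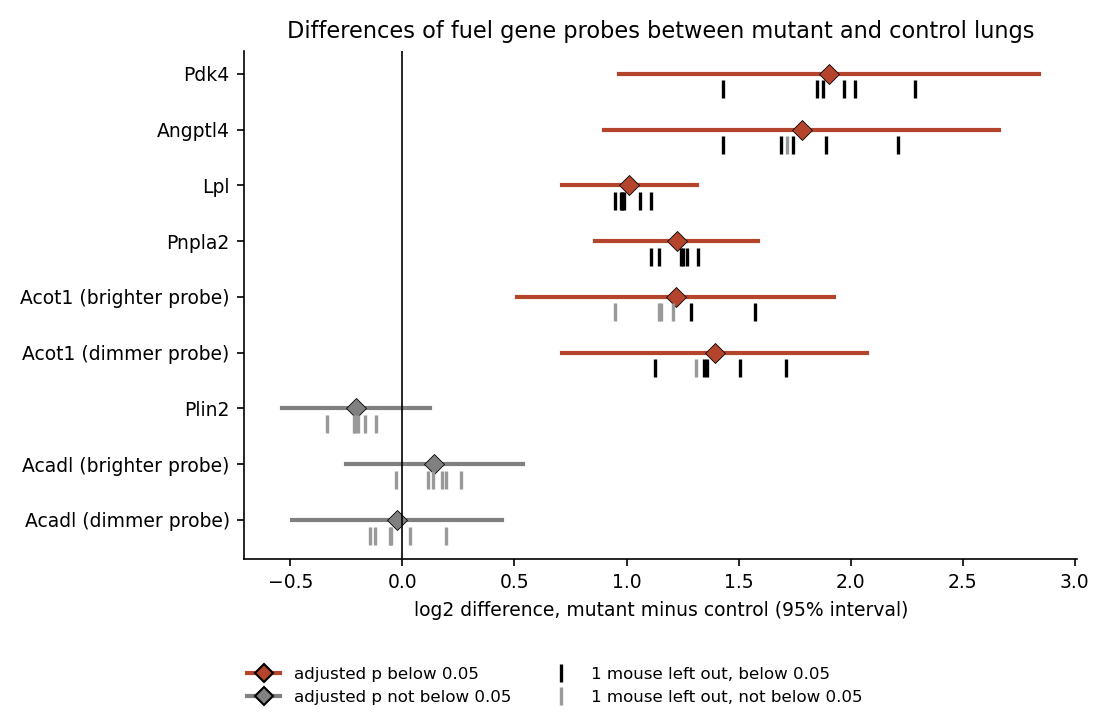
Log2 difference, mutant minus control, for the 9 probes (horizontal axis), with diamonds at the estimate and bars for its 95% interval. Ticks under each bar are the differences with 1 of the 6 mice left out, black where the adjusted p stayed below 0.05. The differences run from -0.21 for Plin2 to 1.90 for Pdk4, and all ticks of Pdk4, Lpl and Pnpla2 are black, while Angptl4 and both Acot1 probes have black and grey ones and Plin2 and Acadl grey ones alone.

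Among the controls, the ranking differed between the genes that rose. In 4 of the 5, control mouse 3 was the highest control, and in 4 of the 5 control mouse 1 was the lowest. The SD was larger among controls than among mutants in all 5. Shares over all genes are not given for the ranking or the SD, so neither is read as particular to these genes. Control mouse 2 was the highest control for Pdk4 alone.

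Because Pdk4, Acot1 and Pnpla2 rose together while Plin2 did not pass, their promoters were searched for binding motifs of the receptors and factors of fasting. The RefSeq table of build GRCm38.p6 gave a window of 250 bases before to 50 after 1 start site for 7 of the 9 genes, all except Angptl4 and Lpl. That site is the outermost start of the annotated gene for 4 of them (Pdk4, Pnpla2, Acot1 and Acadl). It lies 158 bases from it for Plin2, 975 for Cpt1a and 53063 for Cd36, so the windows of these 3 genes are those of another start. Of all 32851 windows in the table, 16.3% held the nuclear receptor half-site AGGTCA on either strand, and 3.86% held a direct repeat of it with 1 base between the copies and at most 2 of 12 letters different. All motifs were searched on both strands. Of the 7 windows here, 3 held the half-site (Plin2, Cd36 and Cpt1a) and 2 the repeat (Plin2 and Cd36), and in Plin2 they overlap. The FoxO element GTAAACA, in 3.65% of all windows, was in 0 of the 7. The glucocorticoid half-site AGAACA, in 19% of all windows, was in 1 (Acot1), and the E-box CACGTG, in 7.15%, was in 1 (Plin2). Of the genes that rose, Pdk4 and Pnpla2 had no match in the window and Acot1 the single one. These windows are short, and a match is a description of letters. The windows of Pdk4, which rose most, of Acot1 and of Plin2 are shown 5′ to 3′ on the strand of the gene, with matches in capitals. They lie at chr6:5496229-5496528 on the minus strand (Pdk4), at chr12:84009252-84009551 on the plus strand (Acot1, capitals at the glucocorticoid half-site at position -171 from the start) and at chr4:86670010-86670309 on the minus strand (Plin2, capitals at the repeat at -225 and the E-box at -4).
Pdk4: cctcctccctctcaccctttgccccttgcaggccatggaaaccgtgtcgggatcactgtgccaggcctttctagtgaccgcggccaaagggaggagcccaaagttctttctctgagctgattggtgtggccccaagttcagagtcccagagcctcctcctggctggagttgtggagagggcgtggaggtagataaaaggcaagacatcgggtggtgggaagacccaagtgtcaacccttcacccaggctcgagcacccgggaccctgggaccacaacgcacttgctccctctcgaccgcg
Acot1: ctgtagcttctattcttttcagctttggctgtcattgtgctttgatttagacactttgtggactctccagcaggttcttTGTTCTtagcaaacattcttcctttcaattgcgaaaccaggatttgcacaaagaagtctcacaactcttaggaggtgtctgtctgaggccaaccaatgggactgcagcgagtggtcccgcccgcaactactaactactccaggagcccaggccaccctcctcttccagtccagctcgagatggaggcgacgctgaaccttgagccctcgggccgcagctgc
Plin2: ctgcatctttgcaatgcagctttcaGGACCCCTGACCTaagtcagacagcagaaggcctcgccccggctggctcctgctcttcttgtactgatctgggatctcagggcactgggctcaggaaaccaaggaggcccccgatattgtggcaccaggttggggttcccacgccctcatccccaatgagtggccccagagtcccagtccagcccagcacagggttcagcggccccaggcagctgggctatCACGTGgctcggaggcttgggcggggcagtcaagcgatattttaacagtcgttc

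Of the other genes in the pathway, taken from 10 lists of 178 genes with 122 measured, 22 were higher and 11 lower in mutants, with a median of -0.03. Over all genes 12.7% were called higher and 14.5% lower. The counts of single lists are small and are to be read beside these shares. Without Klf15, which passed the detection filter through the mutants alone, 21 of 121 were higher. Leaving out control mouse 1 gave 10 higher and 7 lower genes, leaving out control mouse 2 gave 14 and 6, and leaving out mutant mouse 1 gave 10 and 7. The count of higher genes was 14 when mutant mouse 2 was left out, and 14 with a replicate block. Of the 122 genes, 89 did not pass in either direction. The lists hold genes of both synthesis and oxidation, so the pooled counts give no verdict on the pathway.

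Genes that oxidise fatty acids in the mitochondrion had a median of -0.14, and of 18 measured 1 rose and 3 fell. Decr1, an enzyme for unsaturated fatty acids, was 2.01-fold lower (-1.01 ± 0.17, adjusted p = 0.00773), with 7.43, 7.64 and 7.78 in mutants against 8.42, 8.91 and 8.55 in controls, and kept its call under all 16 alternatives. Acads, the short-chain acyl-CoA dehydrogenase, differed by -0.57 (adjusted p = 0.0435), and the enoyl-CoA isomerase genes Eci1 by -0.37 (0.0456) and Eci2 by 0.53 (0.0496). Each of these 3 passed under 7 of the 16 alternatives. The call of Eci1 was lost without any 1 of the 6 mice, that of Acads without any except control mouse 1 and that of Eci2 without any except mutant mouse 3, with adjusted p up to 0.141. Acadm and Acadvl, close relatives of Acadl for medium and very long chains, differed by -0.15 ± 0.20 and -0.31 ± 0.16, and neither passed. Of 9 peroxisomal and omega oxidation genes, 1 fell: Abcd2, a peroxisomal transporter of fatty acyl-CoA, by -1.04 ± 0.23 (adjusted p = 0.0189). Its other probe passed the detection filter through the controls alone and adds no test. The Abcd2 call was lost without control mouse 1 (0.0579) or control mouse 2 (0.0584). Of 4 genes of ketone body metabolism, 2 fell. These were Aacs, which activates acetoacetate, by -0.85 ± 0.22 (adjusted p = 0.0303), and Oxct1, which starts ketone use, by -0.62 ± 0.15 (0.0227). Both calls were lost on leaving out control mouse 1 or 2, or mutant mouse 1 or 3, with adjusted p up to 0.0992. Among the oxidation and ketone genes Eci2 was thus the single riser.

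The pyruvate dehydrogenase complex and its kinases had 10 measured genes besides Pdk4, of which 1 rose. Pdk1, a kinase of the same family, was 1.94-fold higher (0.96 ± 0.16, adjusted p = 0.00849), with 9.30, 9.15 and 9.03 in mutants against 8.39, 7.89 and 8.33 in controls, and it passed under all 16 alternatives. Pdk2 differed by 0.44 ± 0.21 (adjusted p = 0.164) and Pdk3 by 0.13 ± 0.13 (0.479). Pdha1, the subunit that these kinases phosphorylate, differed by -0.12 ± 0.15 (0.581), and Pdp1, a phosphatase that reverses them, by 0.21 ± 0.12 (0.241). The count of risers was 2 without mutant mouse 3 and 3 with array weights.

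Fatty acid uptake and activation, which takes in the lipase partners above, had 18 measured genes, of which 5 rose and 2 fell. Slc27a3, of the fatty acid transport protein family, was 4.16-fold lower (-2.06 ± 0.30, adjusted p = 0.00597), with 6.66, 6.96 and 5.99 in mutants against 8.76, 8.93 and 8.10 in controls. Its probe was detected on 2 mutant arrays, and without background correction it was 1.80-fold lower. It was 2.46-fold lower with normexp at an offset of 50 and 1.78-fold lower with the authors' processed values. Vldlr, a lipoprotein receptor, rose by 0.72 ± 0.17 (adjusted p = 0.0240), and its other 3 probes rose by 0.72 to 0.80. Acsl3 and Acsl4, which join fatty acids to CoA, rose by 0.55 ± 0.11 (0.0127) and 0.54 ± 0.15 (0.0345). The Vldlr call was lost with a replicate block (0.0538) and on leaving out control mouse 1 or 2, or mutant mouse 1 or 2 (up to 0.0745), and the Acsl3 call on leaving out mutant mouse 1. Acsl4 lost its call on leaving out control mouse 1 or 2, or mutant mouse 1. In this list, leaving out control mouse 1 or control mouse 2 gave 1 riser, leaving out mutant mouse 1 gave 0 and leaving out mutant mouse 2 gave 2. The count was 2 with a replicate block and 3 without a detection filter.

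Of 11 lipid droplet genes besides Plin2, 2 rose and 0 fell. Hsd17b11, a droplet-bound dehydrogenase, rose by 0.74 ± 0.16 (adjusted p = 0.0169), and Fitm2, needed to form droplets, by 0.66 ± 0.13 (0.0118). Both calls were lost on leaving out control mouse 1 (0.0579 and 0.0519), and that of Hsd17b11 also on leaving out mutant mouse 1 (0.0588). Cidec, a droplet protein of fat cells, had 7.23, 7.41 and 5.77 in mutants against 7.89, 9.28 and 7.68 in controls and did not pass (-1.48 ± 0.55, adjusted p = 0.0886). In this list 1 gene fell with a replicate block.

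The list of PPAR genes and co-regulators, which also holds other genes such as Txnip, had the highest median of the 10 lists. Of 14 genes detected in both groups, 8 rose and 0 fell, with a median of 0.42 (9 of 15 and 0.44 with Klf15, which the detection filter admitted through the mutants alone). Lpin1, a phosphatidate phosphatase that also co-activates PPAR alpha, had 10.89, 10.62 and 10.42 in mutant mice 1, 2 and 3, against 8.43, 8.88 and 8.64 in control mice 1, 2 and 3. It was 3.98-fold higher (1.99 ± 0.17, adjusted p = 0.00265), or 2.54-fold with the authors' processed values. Its relative Lpin2 rose 2.39-fold (1.25 ± 0.20, adjusted p = 0.00758). Ppargc1a, the co-activator PGC-1 alpha, had 9.50, 9.47 and 9.95 in mutants against 8.33, 8.63 and 8.77 in controls, a rise of 2.10-fold (1.07 ± 0.18, adjusted p = 0.00833). Klf15, a transcription factor of fasting metabolism, was detected on all 3 mutant arrays and on no control array. In the main normalization it was at least 2.84-fold higher, a bound that holds for that normalization alone. It had to differ to be measured, so the value is a description with no test. That bound takes, on each control array, the probe's value or the dimmest detected signal, whichever is higher. Klf15 depended on the treatment of background: the fitted fold was 1.90 with normexp at an offset of 50, 1.44 without background correction and 1.47 with the authors' processed values. Txnip, an inhibitor of thioredoxin and of glucose uptake, rose by 0.96 ± 0.14 (adjusted p = 0.00612), and Sirt1, a deacetylase that acts on PGC-1 alpha, by 0.69 ± 0.12 (0.00866). The co-activator gene Ncoa1, the PPAR partner gene Rxrb and Foxo1 rose by 0.49, 0.44 and 0.40 (adjusted p = 0.0214, 0.0262 and 0.0325). The receptor gene Pparg itself differed by 0.01 ± 0.21 (adjusted p = 0.967), while Ppara and Ppard had no tested probe. With any 1 mouse left out, 6 to 8 of the 15 genes rose, Klf15 counted.

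Of 22 genes of fatty acid and triglyceride synthesis, 3 rose and 1 fell, with a median of 0.00. Lpin3, of the same family as Lpin1, rose 2.02-fold (1.01 ± 0.18, adjusted p = 0.00931), or 1.31-fold without background correction and 1.23-fold with the authors' processed values. Insig1 and Insig2, which hold back the lipogenic factor SREBP, rose by 0.84 ± 0.25 (0.0453) and 0.47 ± 0.10 (0.0167). Insig1 passed under 7 of the 16 alternatives. Its call was lost without any 1 of the mice except mutant mouse 3 (up to 0.115). Median scaling, the authors' processed values, no detection filter and the mean of all its probes also lost it. Insig2 lost its call with a replicate block (0.0551) and on leaving out control mouse 1 (0.0680) or mutant mouse 1 (0.0578). The other Insig1 probes rose by 0.81 each without passing (0.103 and 0.0536), and the other Insig2 probe by 0.47 (0.0622). Elovl1, an elongase of very long chains, was 1.92-fold lower by its brightest probe (-0.94 ± 0.17, adjusted p = 0.00965). Its other 3 probes differed by -0.09 to -0.76, and the mean of all its probes did not pass (adjusted p = 0.0560). Srebf1, which encodes SREBP1, differed by 0.00 ± 0.33.

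**Figure D4:**
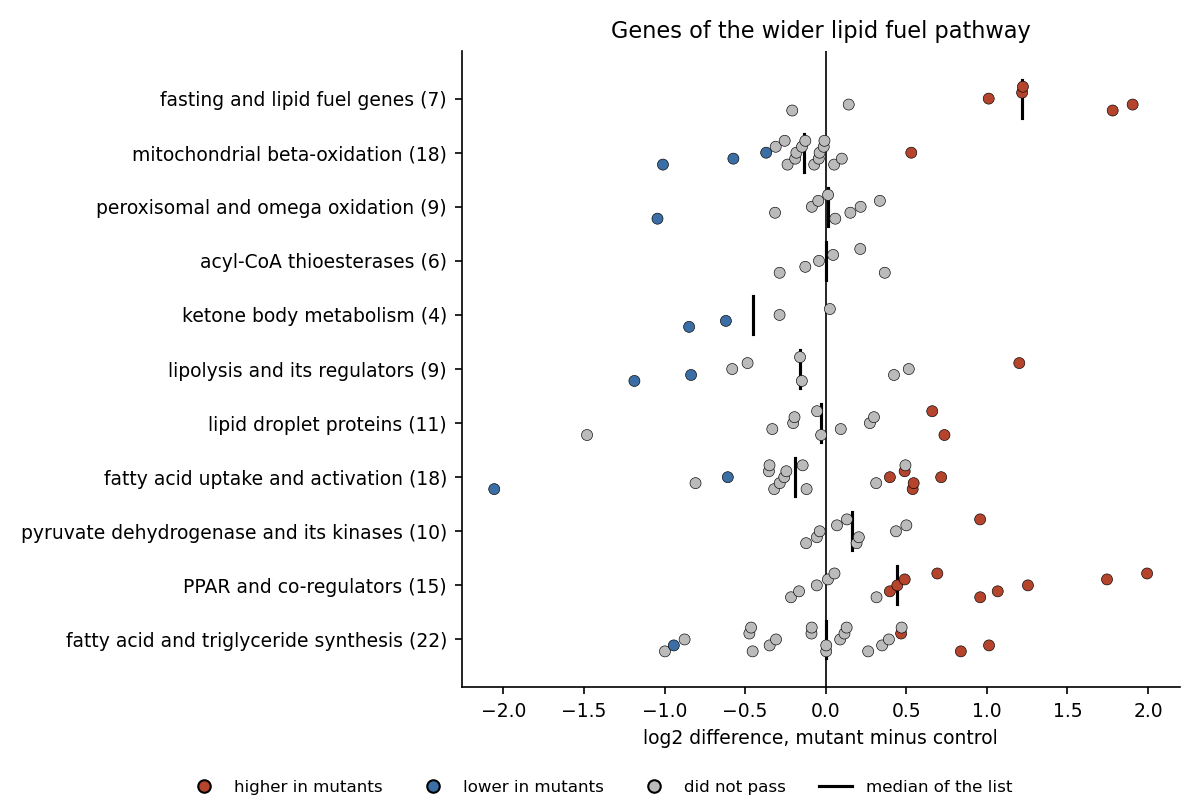
Log2 difference, mutant minus control (horizontal axis), of each measured gene in the fasting and lipid fuel genes (top row) and in 10 other lists of the pathway, with the number of genes in brackets. Points are genes, red where higher and blue where lower in mutants at an adjusted p below 0.05, vertical offsets only separate points, and bars mark list medians, 1.22 in the top row and 0.44 for PPAR and co-regulators. Klf15, detected on no control array, is drawn at its fitted difference of 1.75, which is not a bound, and passed the detection filter through the mutants alone.

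Mean levels of several cell type marker lists differed between the groups. Counts of called markers are small and stand beside 14.5% of all genes called lower and 12.7% called higher. General capillary markers without Lpl fell in 4 of 6 genes, and their mean log2 intensity was 11.8 to 12.2 in mutants and 12.7 to 12.9 in controls. Lipofibroblast markers without Lpl and Plin2 fell in 4 of 7 genes, G0s2 among them, with means of 10.6 to 10.7 in mutants and 11.3 to 11.6 in controls. Lpl itself, left out of these means, was higher in mutants, and whether any cell type bears on its rise was not tested. White adipocyte markers fell in 2 of 7 genes, Adipoq and Slc7a10, with means of 6.41 to 6.82 in mutants and 7.07 to 8.93 in controls, and Adipoq was detected on 1 mutant array. Brown adipocyte markers rose in 1 gene, Ppargc1a, and fell in 2 of 4, with means of 8.54 to 8.83 in mutants and 8.74 to 10.3 in controls. Fat and muscle markers stood highest in a single control each: adipocyte and cardiac lists in control mouse 2, the skeletal muscle list in control mouse 3. Cardiac markers fell in 3 of 10 genes, with means of 9.16 to 10.2 in mutants and 10.8 to 11.9 in controls. Skeletal muscle markers fell in 2 of 4 genes detected in both groups, and Ckm was detected on no mutant array. The mean over these 4 and Ckm was 7.12 to 7.75 in mutants and 8.53 to 12.2 in controls. Alveolar macrophage markers rose in 1 and fell in 1 of 6, and lung epithelial markers fell in 1 of 13, with means of 13.3 to 13.6 in mutants and 13.5 to 13.6 in controls, so the tissue carried the transcripts of lung. The part of these cell types in the fuel gene results was not tested.

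**Figure D5:**
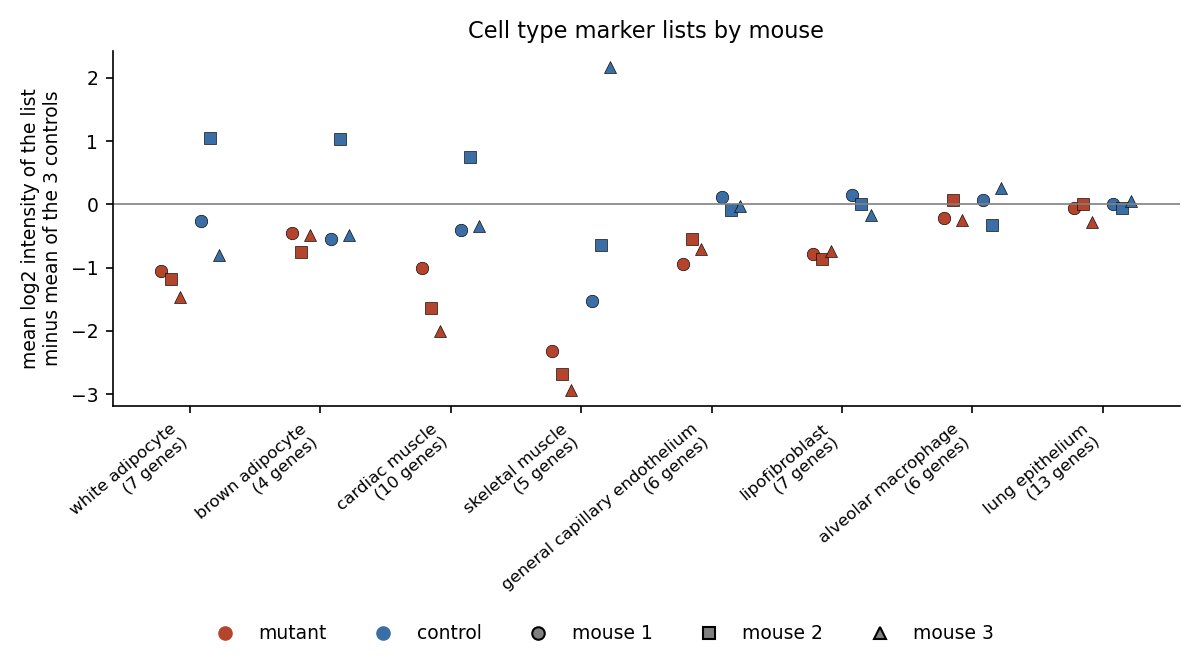
Mean log2 intensity of each cell type marker list minus the mean of the 3 controls (vertical axis), with the number of genes in brackets. Points are single mice, mutants in red to the left of controls in blue. Mutants lie below all controls in the white adipocyte, cardiac, skeletal muscle, general capillary and lipofibroblast lists, and control mouse 2 stands highest in the adipocyte and cardiac lists. The skeletal muscle mean includes Ckm, which was detected on no mutant array and passed the detection filter through the controls alone.

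Tmem100, the targeted gene, had 8.44, 9.43 and 9.51 log2 units in mutant mice 1, 2 and 3, against 11.16, 15.36 and 10.69 in control mice 1, 2 and 3. The groups did not overlap, but the difference of -3.28 ± 1.15 did not pass (adjusted p = 0.0749), and without control mouse 2 it was -1.80 with an adjusted p of 0.0284. It was -3.93 on leaving out control mouse 1, -4.14 on leaving out control mouse 3 and -2.58 with the authors' processed values, and did not pass in these. The sources used here do not say whether the probe lies in the deleted part. Control mouse 2 also stood highest for the adipocyte lists and for globin Hba-a1. Median intensities were 333 to 339 on mutant and 335 to 363 on control arrays, and 12781 to 13046 probes were detected on mutant and 13354 to 13749 on control arrays.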

How the data were processed

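Per the labels' protocols, cRNA was made from 550 ng of total RNA per lung. The unnormalized table that the authors deposited holds, per the file headers, an intensity (linear scale) and a detection p-value for each of 25697 probes on each array. The submitters' processing notes name GenomeStudio 2009.2 and R 2.4.1 without a role. A table of the authors' processed values, on a log2 scale as read from the values, holds 13261 probes, and in it the columns of mutant mice 1 and 2 hold the same values, so mutant mouse 1 was dropped where that table served as an alternative. No source used here names the genome build of the array.

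Intensities were normalized by the function neqc (limma 3.58.1, R 4.3.3) (negative controls inferred from the detection p-values, offset 16, quantile, log2). The 13361 probes that passed the detection filter (p below 0.05 on 3 or more arrays of 6) were compared by lmFit and eBayes, mutant minus control, with Benjamini-Hochberg adjustment over all of them and a threshold of 0.05. Errors are SE of the fit. A gene is its brightest tested probe by the mean of all arrays, and levels are not compared between genes. Mice are separate animals, and their number limits the precision. Symbols come from the platform annotation, updated by Entrez identifier through RefSeq. The fit was tested on simulated data. Members and lists were chosen with earlier results of these data known. Named were all members, Tmem100 and, in each wider list, the genes of largest change that passed the threshold, at most 4, or, where none passed, the 1 of lowest p. Named after their values were seen were Gpihbp1, Sel1l, Furin, Angptl8, Abhd5, Hilpda, Lipe, Acot2, Acadm, Acadvl, Acsl4, Pdk2, Pdk3, Pdha1, Pdp1, Cidec, Txnip, Sirt1, Ncoa1, Rxrb, Foxo1, Pparg, Srebf1 and Hba-a1. Alternatives were array weights, a robust variance trend, median scaling, normexp with offset 50 in place of neqc, uncorrected background, the processed values, a stricter detection filter (p below 0.01 on every array) or none, a replicate block, gene means over all probes, and each mouse left out in turn.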

Additional observations from a re-analysis of the deposited data

How the results depend on the processing

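Of the fuel genes, Pdk4, Lpl and Pnpla2 kept direction and call under all 16 alternatives. Angptl4 ended as a call without control mouse 2 (log2 differences with 1 mouse left out 1.43 to 2.21). The brighter Acot1 probe ended with the authors' processed values (1.15) and without any of 4 mice (0.95 to 1.57), and the dimmer without mutant mouse 1 (1.13 to 1.71). The cause was not tested. None of the named genes that had passed reversed under any alternative. The count of fuel genes that rose was 3 to 5 with 1 mouse left out, 4 with the authors' processed values and 5 otherwise. Among all tested probes 3573 passed, 1679 to 3077 with 1 mouse left out. In the wider lists 10 to 20 genes rose and 6 to 9 fell with 1 mouse left out. Same-numbered mutant and control mice did not deviate together (correlations of -0.086, -0.014 and -0.036), and no mouse correlated best with its own number. These values showed no pairing by number, but with 3 mice per group they cannot exclude it. With a replicate block, 5 fuel genes and 14 wider genes rose, against 22 without it, and 2642 probes passed. Slc27a3 and Klf15 have no value under the stricter detection filter. The median over all genes stayed between -0.026 and 0.021 in every setting. Folds of dim probes near background depended on its treatment. Those of Slc27a3, Klf15 and Lpin3 were smaller without background correction than in the main normalization, and which is nearer the true fold was not tested.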
